A study of Homo sapiens with 8 samples.

Results

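The DNA repair genes examined here are 38 genes set as a list of names, which was chosen with earlier results of these data known. All 38 were found by name among the 34423 gene names on the array. They cover the Fanconi anemia proteins, homologous recombination, the helicases and nucleases of break processing, the damage signalling kinases, mismatch repair and base excision repair. A total of 65 probes carried these names, 63 of them were tested, and every gene had at least 1 tested probe, so no member was lost to the filter on dim signals. The brightest tested probe of each gene was above background on all 8 arrays in all 38 genes, and it stands for the gene unless another probe is named.

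The samples came from HCT116, a cell line of human colorectal cancer, as 4 clones that were each grown without drug or for 72 h in 1 µM 5-aza-dC (5-aza-2'-deoxycytidine). The control clones CONT1 and CONT2 carried the plasmid pcDNA6.2-GW/EmGFP-miR-neg, and the clones TET1-KD1 and TET1-KD2 carried vectors that express miRNAs against TET1, a different miRNA in each. All clones had been selected with G418 and picked as GFP-positive colonies, so each group is a pair of cell lines each grown from a colony, and n = 2 clones in every condition. A treatment field in the labels follows the kind of clone and goes against the sample titles, so the titles and the study's methods were used. Drug and medium were renewed every 24 h.

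Signals are log2 values of scanner intensity scaled to the 75th percentile of each array. A difference of 1 on this scale is a 2-fold change. Both treated control arrays lay on a second slide that was scanned 230 days after the slide with the other 6 arrays. The response of the control clones therefore cannot be told apart from the slide, whereas the response of the knockdown clones and the comparison of untreated clones lay within the first slide. The 75th percentile of intensity was 546 to 624 on the first slide and 396 to 476 on the second. The synthetic spike-in RNAs read between 0.99 and 1.01 lower (unscaled log2) on the second slide at the worst affected levels, near 9 and 8, and 0.05 lower at the brightest level. All 7 epithelial markers were above background on all 8 arrays. At its brightest probe TET1 had signals of 9.70 and 9.75 in CONT1 and CONT2 and of 8.65 and 9.41 in TET1-KD1 and TET1-KD2, all untreated (log2 difference -0.69, limma adjusted p = 0.61). A second TET1 probe read 6.12 and 6.10 against 4.56 and 5.71, and the last, above background on 2 of the 8 arrays, read 4.95 and 4.38 against 2.19 and 2.85 (log2 difference -2.14, limma adjusted p = 0.37). All 3 probes read lower in both knockdown clones than in both control clones. No difference between the untreated clones at these 3 probes passed the test across all probes, which 4 of 19688 genes passed. By RT-qPCR the study reported reduced TET1 mRNA in both knockdown clones, with the larger reduction in TET1-KD1.

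5-aza-dC is a cytosine analog that is built into DNA during replication, where it traps the methyltransferase DNMT1 as a protein bound to DNA. Cells meet such DNA-protein adducts, stalled forks and breaks with several repair systems. The Fanconi anemia core complex attaches ubiquitin to the FANCD2 and FANCI pair at stalled forks, and BRCA2, PALB2 and their partners then guide repair by homologous recombination. ATR with CHEK1 and ATM with CHEK2 signal stalled forks and breaks to the cell cycle, and base excision repair starts with a glycosylase such as UNG that removes a damaged or misplaced base. Transcription of many of these genes rises as cells enter S phase, and E2F factors are known regulators of such genes.

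The promoters of 4 genes that were called lower in the treated knockdown clones are shown, with the letters that were searched for in all promoters. They are the 250 bases before a RefSeq start site in GRCh38.p14, read 5' to 3' on the strand of the gene. Capitals mark the E2F-type words TTTCCCGC, TTTGGCGC, TTTCGCGC and TTTGCCGC and the word CCAAT, each on either strand. FANCA lies on the minus strand at chr16:89816648-89816897, the second start of UNG on the plus strand at chr12:109097922-109098171, PALB2 on the minus strand at chr16:23641311-23641560 and the first start of RAD54L on the plus strand at chr1:46247438-46247687.
FANCA: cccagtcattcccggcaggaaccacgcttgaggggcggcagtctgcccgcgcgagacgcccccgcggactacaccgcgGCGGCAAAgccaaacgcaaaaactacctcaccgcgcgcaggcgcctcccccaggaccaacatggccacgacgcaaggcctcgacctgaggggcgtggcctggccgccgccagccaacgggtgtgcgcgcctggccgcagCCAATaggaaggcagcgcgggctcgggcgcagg
UNG: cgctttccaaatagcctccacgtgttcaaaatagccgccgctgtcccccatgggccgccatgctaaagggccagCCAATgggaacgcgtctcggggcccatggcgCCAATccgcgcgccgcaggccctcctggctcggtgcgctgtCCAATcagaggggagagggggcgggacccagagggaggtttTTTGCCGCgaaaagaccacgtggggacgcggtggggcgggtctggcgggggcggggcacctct
PALB2: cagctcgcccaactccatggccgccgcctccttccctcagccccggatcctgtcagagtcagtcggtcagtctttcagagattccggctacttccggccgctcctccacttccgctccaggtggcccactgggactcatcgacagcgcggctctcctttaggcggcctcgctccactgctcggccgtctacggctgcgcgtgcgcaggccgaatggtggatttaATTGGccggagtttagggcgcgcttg
RAD54L: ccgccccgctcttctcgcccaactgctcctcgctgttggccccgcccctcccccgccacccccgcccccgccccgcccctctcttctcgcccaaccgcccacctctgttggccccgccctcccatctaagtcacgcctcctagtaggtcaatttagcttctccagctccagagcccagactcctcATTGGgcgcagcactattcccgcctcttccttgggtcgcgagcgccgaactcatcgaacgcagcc
FANCA and UNG each hold 1 E2F-type word in this stretch, PALB2 and RAD54L hold none, and all 4 hold CCAAT on one strand or the other. The 250 bases before the first start of UNG, at chr12:109097347-109097596 and not shown, hold neither word. Those before the second start of RAD54L, also not shown, hold CCAAT and no E2F-type word.

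RefSeq windows of 300 bases (250 before and 50 after a start) were found for 33 of the 38 genes, with 48 windows because several genes have more than 1 start. FANCI, RAD54B, WRN, NBN and SMUG1 had no entry. An E2F-type word lay in at least 1 window of 9 of the 33 genes (27.3%), against 3.99% of the 27305 genes with an entry. These 9 were FANCA, FANCC, FANCD2, EXO1, MSH3, MSH6, PMS2, UNG and XRCC2. Counted by window, it lay in 20.8% of the repair gene windows and in 3.31% of all 35116 windows. CCAAT lay in 52.1% of the repair gene windows and 34.6% of all, and in no repair gene window did it overlap an E2F-type word. The repair gene windows held a median of 26.5 CG pairs (range 11 to 41), against 14 over all windows. These shares describe letters in a window and not binding.

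In the TET1 knockdown clones the repair genes were mostly lower after 5-aza-dC, and no repair gene rose past the test. FANCA, NBN, PALB2, UNG and RAD54L fell, which is 5 of 38 genes (13.2%) against 3.09% of all 19688 genes tested. No repair gene was called higher, although 9.45% of all genes were, and 1 of those with a positive difference, FANCF, reached an unadjusted p below 0.05. The median log2 change was -0.41 over the 38 genes and -0.06 over all genes, 33 of the 38 had a negative difference, and the falls that passed the test were 1.67-fold to 1.95-fold. In 23 of the 38 genes (60.5%) both treated arrays lay below both untreated arrays, against 30.9% of all genes. Both treated arrays lay above both untreated arrays in 1 gene, FANCF, against 24.9% of all genes. A gene was called when its adjusted p was below 0.05 in limma with Benjamini-Hochberg adjustment over all tested probes. A lower signal in bulk RNA can be less RNA per cell or fewer cells that express the gene, which cannot be told apart here.

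**Figure D1:**
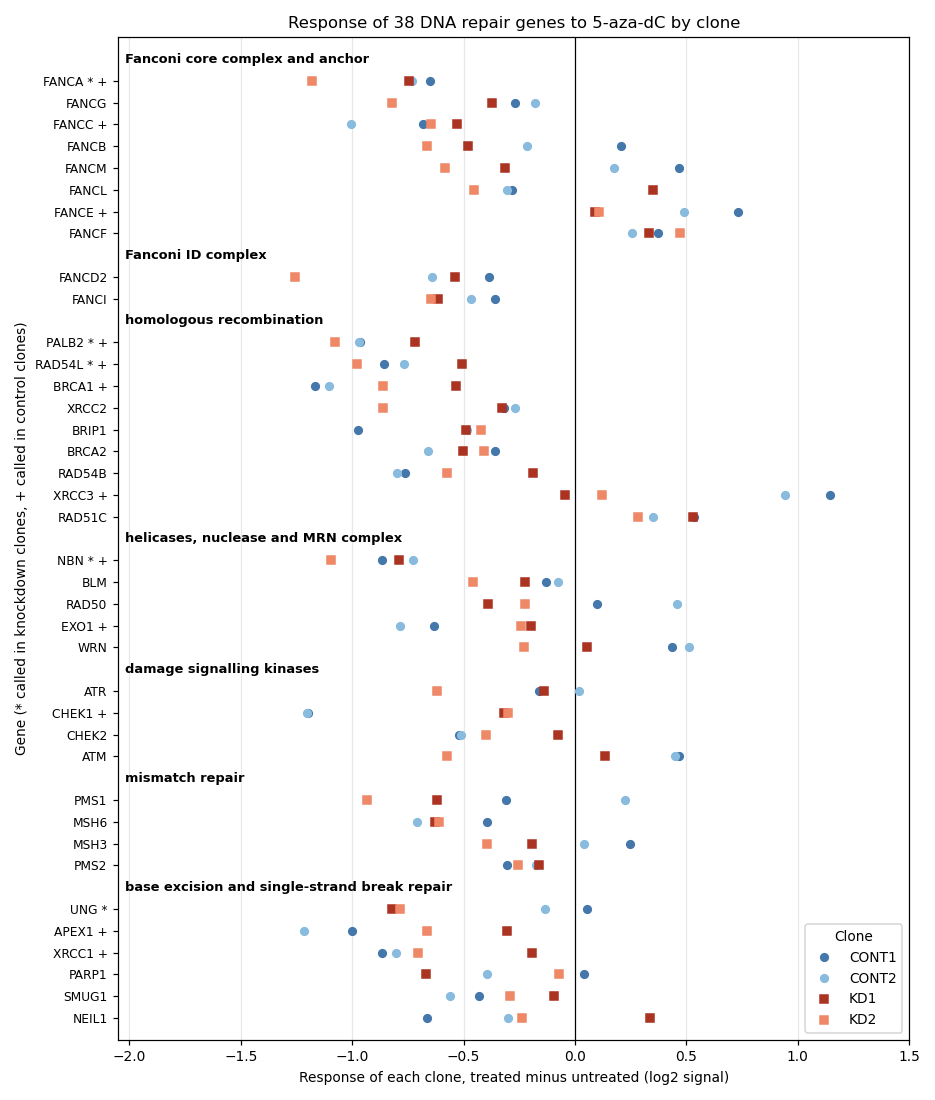
Response of each clone (treated minus untreated, log2 signal; circles, control clones; squares, knockdown clones) for the 38 genes grouped by role, with * for a call in the knockdown clones and + for a call in the control clones. Squares lie left of 0 in both knockdown clones for 30 of the 38 genes, and XRCC3 has its circles near 1 and its squares near 0.

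The fall was seen in each knockdown clone taken alone. In TET1-KD1 31 of the 38 genes were lower after treatment, with a median of -0.32, and in TET1-KD2 34 were lower, with a median of -0.57. Over all genes 54.6% were lower in TET1-KD1 and 54.9% in TET1-KD2. In 30 of the 38 genes the signal was lower in both knockdown clones, against 43.3% of all genes. In 28 of the 38 it was lower by more, or higher by less, in TET1-KD2 than in TET1-KD1, and the share of all genes was not counted for this. Over all genes the median was -0.05 in TET1-KD1 and -0.07 in TET1-KD2. By the study's RT-qPCR TET1-KD2 had the weaker knockdown. At the probes that stand for the genes, FANCE, FANCF and RAD51C were the 3 that were higher in both knockdown clones. The other tested probe of FANCF was lower in both, by 0.02 and 0.17 on the log2 scale.

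Among the Fanconi core complex and its anchor, FANCA, a subunit of the core complex, had the largest change of the 8 genes. Its probe at chr16:89804013-89804072 (hg19) read 10.80 and 10.79 in untreated TET1-KD1 and TET1-KD2 and 10.06 and 9.61 after treatment (log2 difference -0.96 ± 0.19 SE, n = 2 clones, limma adjusted p = 0.024). In the control clones it read 10.34 and 10.49 untreated and 9.69 and 9.76 treated. Treated and untreated arrays did not overlap in either kind of clone, and TET1-KD2 ended lowest. The other core members, namely FANCB, FANCC, FANCE, FANCF, FANCG and the ubiquitin ligase FANCL, and the anchor FANCM, a translocase that brings the complex to DNA, were not called, with log2 differences from -0.60 (FANCG) to 0.40 (FANCF). FANCC had a difference of -0.59 ± 0.17 SE at an adjusted p of 0.074. FANCM differed more between the knockdown clones than with treatment, at 10.43 and 9.46 untreated and 10.12 and 8.88 treated.

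FANCD2 and FANCI, the pair that receives ubiquitin from the core complex, had negative differences that missed the threshold. FANCD2 read 9.96 and 10.07 untreated and 9.42 and 8.82 treated in the knockdown clones (-0.90 ± 0.23 SE, limma adjusted p = 0.058). FANCI read 12.35 and 12.25 untreated and 11.73 and 11.61 treated (-0.63 ± 0.18 SE, limma adjusted p = 0.078). With the clone as a block FANCI passed the test (adjusted p = 0.044). Neither gene had overlapping treated and untreated arrays in these clones.

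In homologous recombination PALB2 and RAD54L were called lower. PALB2, which links BRCA1 to BRCA2, read 8.12 and 8.07 in the untreated knockdown clones at chr16:23625336-23625395 and 7.40 and 6.99 after treatment (-0.90 ± 0.18 SE, limma adjusted p = 0.025). CONT1 and CONT2 read 7.63 and 7.68 untreated and 6.67 and 6.71 treated. All 4 treated arrays lay below all 4 untreated ones.

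RAD54L, a motor protein of strand invasion, read 11.53 and 11.85 untreated and 11.02 and 10.87 treated in the knockdown clones, at chr1:46744038-46744097 (-0.74 ± 0.17 SE, limma adjusted p = 0.043). With the clone as a block its adjusted p was 0.059, so this call was lost. The control clones read 11.55 and 11.63 untreated and 10.69 and 10.86 treated. BRCA1, a scaffold of break repair, came next by p-value and was not called. It read 10.30 and 10.28 untreated and 9.77 and 9.42 treated at chr17:41196422-41196481 (-0.70 ± 0.17 SE, limma adjusted p = 0.053).

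The other recombination genes were not called in the knockdown clones. BRCA2, a mediator of strand exchange, was the dimmest of the 38 genes at its probe and read 7.01 and 6.01 untreated and 6.51 and 5.60 treated. Each clone was lower after treatment, by 0.50 and 0.41 on the log2 scale. The difference was -0.45 ± 0.41 SE in the test over all arrays and -0.45 ± 0.14 SE with the clone as a block (limma adjusted p = 0.10), and it was called in neither. BRIP1 (a helicase that binds BRCA1), RAD54B (a relative of RAD54L) and XRCC2 (a strand exchange factor) had differences between -0.60 and -0.38. RAD51C, a strand exchange factor, had 0.40 ± 0.33 SE, and XRCC3, its partner, had 0.04 ± 0.15 SE.

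NBN, the subunit of the MRN complex that recruits ATM to breaks, was the called gene among the helicases, the nuclease and the MRN complex. It read 9.63 and 9.44 untreated and 8.84 and 8.35 treated in the knockdown clones, at chr8:90946384-90946443 (-0.94 ± 0.21 SE, limma adjusted p = 0.039). The control clones read 9.37 and 9.13 untreated and 8.51 and 8.40 treated. NBN was thus lower in all 4 clones, by 0.73 on the log2 scale in CONT2, where the change was smallest, and by 1.09 in TET1-KD2, where it was largest. Its partner RAD50 had -0.31 ± 0.19 SE, the RecQ helicases BLM and WRN had -0.34 ± 0.19 and -0.09 ± 0.16 SE, and the nuclease EXO1 had -0.22 ± 0.21 SE, none of them called.

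The 4 damage signalling kinases had small negative differences in the knockdown clones, from -0.38 (ATR) to -0.22 (ATM), and none was called. Mismatch repair likewise had no called gene, with -0.78 ± 0.33 SE for PMS1, -0.62 ± 0.61 SE for MSH6, -0.30 ± 0.18 SE for MSH3 and -0.21 ± 0.16 SE for PMS2. MSH6, a sensor of mispaired bases, differed widely between clones and kept that order under treatment. It read 12.41 and 13.58 in untreated CONT1 and CONT2 and 12.02 and 12.87 when treated. It read 13.82 and 12.72 in untreated TET1-KD1 and TET1-KD2 and 13.19 and 12.10 when treated. Each clone was lower by 0.40 to 0.71, while clones of a kind differed by more than that. With the clone as a block the MSH6 difference in the knockdown clones was -0.62 ± 0.14 SE and was not called (limma adjusted p = 0.060). In the control clones it was then -0.55 ± 0.14 SE and was called (limma adjusted p = 0.036), a response that cannot be told apart from the slide.

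In base excision and single-strand break repair, UNG, the glycosylase that removes uracil from DNA, fell in the knockdown clones. It read 14.37 and 14.61 untreated and 13.55 and 13.82 treated at chr12:109548738-109548797 (-0.80 ± 0.17 SE, limma adjusted p = 0.031). CONT1 and CONT2 read 14.69 and 14.79 untreated and 14.75 and 14.65 treated. The treated and untreated arrays overlapped in the control clones and lay apart in the knockdown clones. The difference of the 2 responses was -0.76 ± 0.24 SE and was not called (limma adjusted p = 0.12). In the main setting UNG was the single repair gene called in the knockdown clones and not in the control clones. With quantile normalization its call in the knockdown clones was lost (-0.67, limma adjusted p = 0.060). With the clone as a block the call was kept (limma adjusted p = 0.030). The treated control arrays form the second slide, so the control response of UNG cannot be told apart from the slide. APEX1, the endonuclease that cuts at the abasic site, PARP1, the sensor of strand breaks, and XRCC1, the scaffold that follows it, had differences of -0.48, -0.37 and -0.45, and the glycosylases SMUG1 and NEIL1 had -0.19 and 0.05, none of them called.

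**Figure D2:**
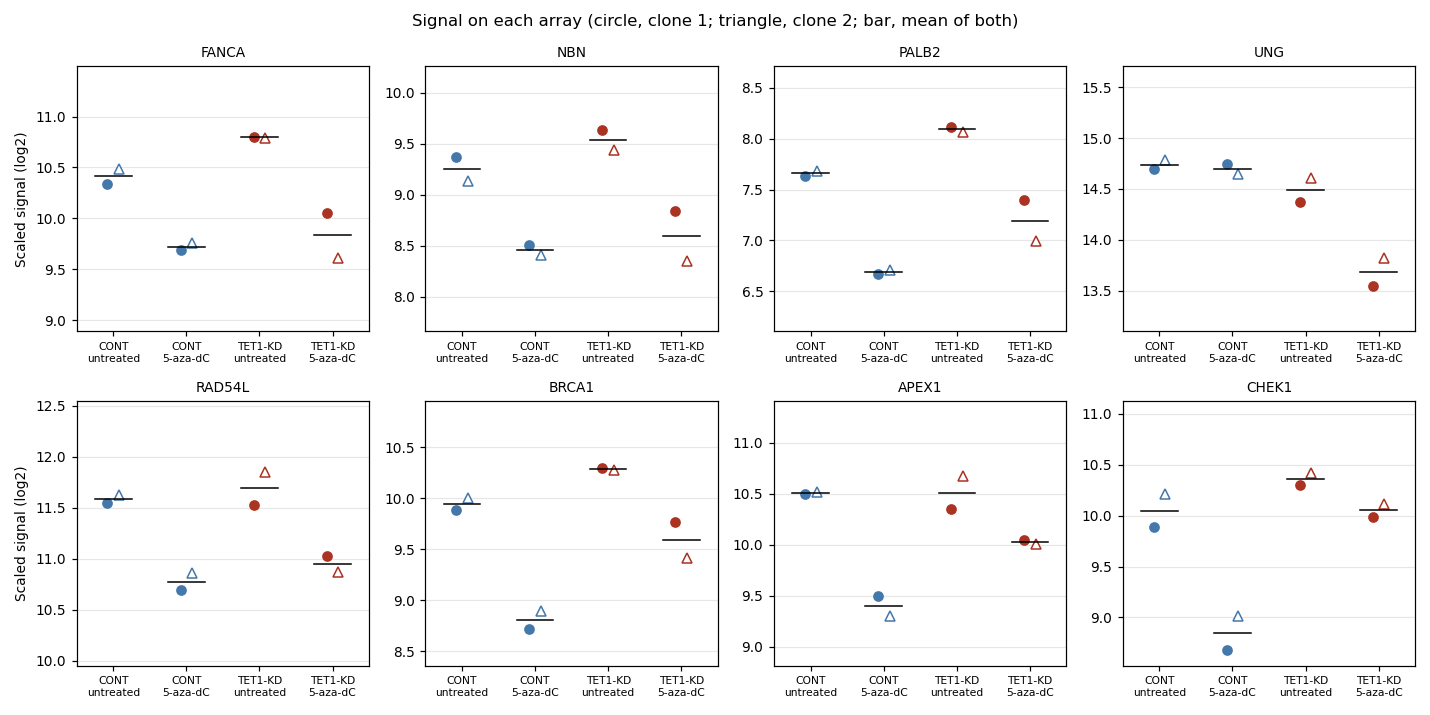
Scaled signal (log2) of 8 repair genes on each array, with a circle for clone 1, a triangle for clone 2 and a bar for their mean; blue marks control and red TET1 knockdown clones. UNG differs with treatment in the knockdown clones (14.37 and 14.61 against 13.55 and 13.82) and overlaps in the control clones, whereas NBN, PALB2 and RAD54L are lower after treatment in both kinds.

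The calls in the knockdown clones rest in part on a spread that was estimated over all 8 arrays. Without the array of untreated CONT1, of untreated CONT2, of untreated TET1-KD2 or of treated TET1-KD2 no repair gene was called, and without untreated TET1-KD1 or either treated control array 1 was. With the 6 arrays of the first slide alone FANCA was the gene called (adjusted p = 0.0494), and with the 4 knockdown arrays alone none was. The median over the 38 genes stayed between -0.56 and -0.22 whichever array was left out.

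In the control clones 10 repair genes fell and 2 rose after 5-aza-dC. The 10 lower genes (26.3%) stand against 21.3% of all genes tested, and the 2 higher genes (5.26%) against 20.5%. The median log2 change was -0.35, against -0.05 over all genes, and 29 of the 38 differences were negative. This median was -0.76 after interpolation on the spike-in signals and between -0.43 and -0.25 as each array was left out. Both treated arrays lay below both untreated ones in 21 genes (55.3%) against 41.2% of all genes, and above in 8 genes (21.1%) against 38% of all genes. In the main setting the share that fell lay near the background. Without untreated CONT1, untreated CONT2 or treated CONT1 the 12 calls became 6, 5 and 7. With the clone as a block 20 repair genes were called, 17 lower and 3 higher, and after interpolation on the spike-in signals 22 were called, all of them lower. The shares of all genes above belong to the main setting, so these 2 counts cannot be set against them.

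CHEK1, the kinase that ATR activates at stalled forks, fell in the control clones. It read 9.88 and 10.21 untreated and 8.69 and 9.01 treated (-1.20 ± 0.19 SE, a 2.30-fold fall, limma adjusted p = 0.0044). In the knockdown clones it read 10.30 and 10.42 untreated and 9.98 and 10.12 treated. Both kinds of clone were lower on treatment, by 1.20 on the log2 scale in each control clone and by 0.32 and 0.30 in TET1-KD1 and TET1-KD2. The difference of the responses, 0.89 ± 0.27 SE, was not called (limma adjusted p = 0.11).

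BRCA1 and APEX1 also fell by more than 2-fold in the control clones. BRCA1 read 9.88 and 10.00 untreated and 8.71 and 8.89 treated (-1.14 ± 0.17 SE, limma adjusted p = 0.0039). APEX1 read 10.50 and 10.52 untreated and 9.50 and 9.30 treated (-1.11 ± 0.17 SE, limma adjusted p = 0.0038). The other 7 genes called lower were PALB2, FANCC, XRCC1, RAD54L, NBN, EXO1 and FANCA, with log2 differences from -0.97 to -0.69. FANCA, NBN, PALB2 and RAD54L were called lower in both kinds of clone, 8 genes were called in the control clones and not in the knockdown clones, and a call in one kind of clone and not in the other is not a tested difference.

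FANCE, the core subunit that binds FANCD2, and XRCC3 were the genes called higher in the control clones. FANCE read 12.69 and 12.90 untreated and 13.42 and 13.39 treated (0.61 ± 0.16 SE, limma adjusted p = 0.024), and 12.61 and 12.76 against 12.70 and 12.86 in the knockdown clones. After interpolation on the spike-ins the difference of FANCE in the control clones was -0.07, so its direction turned with that scaling. That of XRCC3 was 0.195 with the same scaling (limma adjusted p = 0.30) and was not called. WRN (0.47 ± 0.16 SE, limma adjusted p = 0.056), ATM (0.46 ± 0.28 SE) and RAD51C (0.44 ± 0.33 SE) were not called. With the clone as a block WRN was called higher too (limma adjusted p = 0.049), beside XRCC3 and FANCE.

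**Figure D3:**
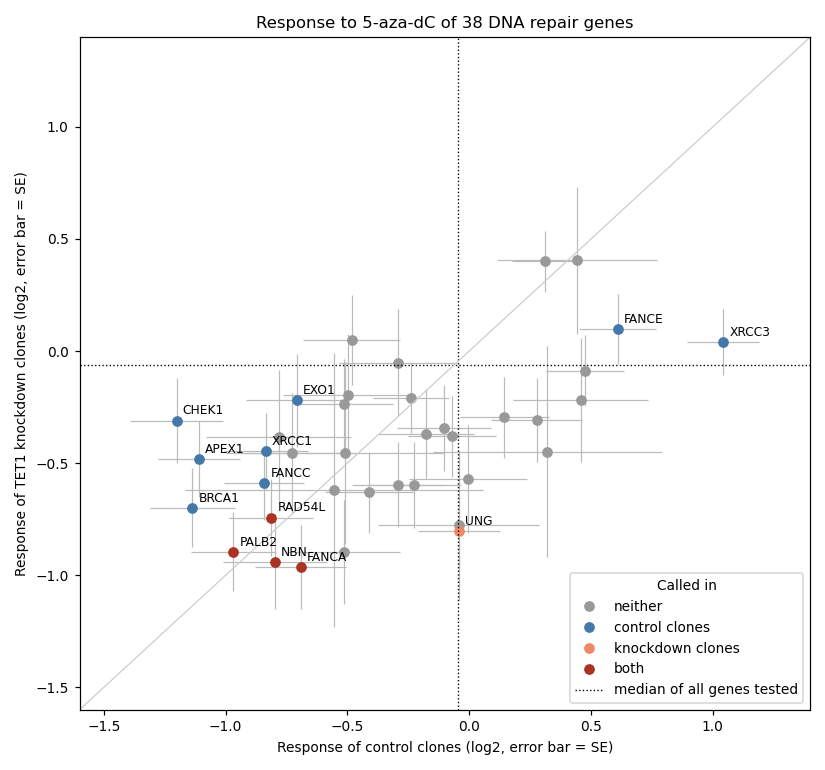
Response of the 38 genes in the control clones (x axis) and in the TET1 knockdown clones (y axis), in log2 with bars of 1 SE; dotted lines mark the medians of all genes tested and the diagonal marks equal responses. FANCA, NBN, PALB2 and RAD54L, called in both, sit in the lower left, UNG lies at -0.04 on the x axis and -0.80 on the y axis, and XRCC3 lies at 1.04 and 0.04.

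The responses of the 2 kinds of clone differed past the test for 1 repair gene, XRCC3, at its brighter probe. That is 1 of 38 genes (2.63%) with a lower response in the knockdown clones, against 1.64% of all genes. None had a higher response, against 3.63% of all genes. An unadjusted p below 0.05 in limma was reached by 5 of the 38, and by 4755 of all 19688 genes tested. XRCC3 read 16.13 and 16.15 in the untreated and 17.27 and 17.09 in the treated control clones, and this probe was the brightest of those that stand for the 38 genes. It read 16.42 and 16.26 in the untreated and 16.38 and 16.38 in the treated knockdown clones. The control clones rose by 1.04 ± 0.15 SE (limma adjusted p = 0.0029), and the difference of the responses was -1.003 ± 0.21 SE (limma adjusted p = 0.0495). This call was lost with the clone as a block (adjusted p = 0.062) and without any 1 of the 8 arrays, and since the treated control arrays make up the second slide, it cannot be told apart from the slide.

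The other tested probe of XRCC3 went the opposite way. The brighter probe is named for the Ensembl transcript ENST00000557439, at chr14:104170734-104170793, and the other for NM_001100119, at chr14:104163955-104164014. That second probe read 11.62 and 11.76 before and 10.44 and 10.59 after treatment in the control clones (-1.18, limma adjusted p = 0.019). In the knockdown clones it read 12.19 and 11.55 untreated and 11.30 and 10.70 treated (-0.87, limma adjusted p = 0.11). With the mean of both probes the control response of XRCC3 was -0.07 and the difference of the responses -0.35, so its direction in the control clones depends on the probe.

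FANCA was also measured by several probes that did not move together. Both further probes are named for NM_001018112. One, at chr16:89864767-89864823, read 8.92 and 9.22 in the untreated and 9.24 and 9.21 in the treated knockdown clones (0.16), and it was higher by 0.50 in the treated control clones (limma adjusted p = 0.044). The other, at chr16:89877116-89877175, read 9.45 and 9.35 untreated and 9.02 and 8.78 treated in the knockdown clones (-0.50, limma adjusted p = 0.086) and differed by 0.27 in the control clones. With the mean of the 3 probes FANCA was not called in the knockdown clones (-0.44, adjusted p = 0.11), and its control response was 0.03. NBN, PALB2, UNG and RAD54L each had 1 probe.

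**Figure D4:**
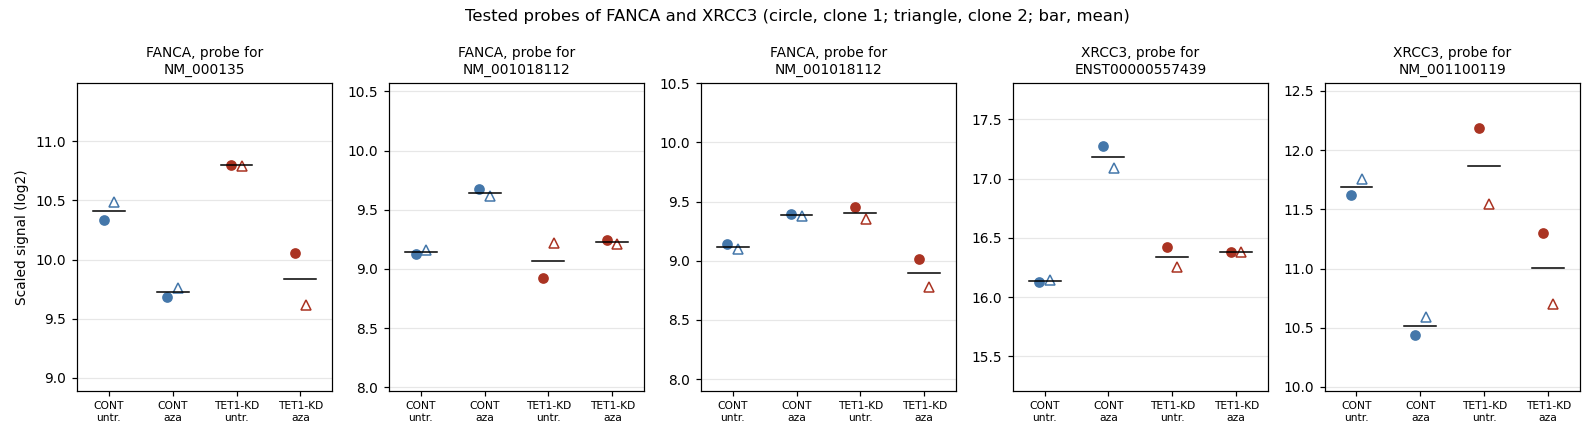
Scaled signal (log2) at the 3 tested probes of FANCA and the 2 of XRCC3 on each array, with a circle for clone 1, a triangle for clone 2 and a bar for the mean; titles give the transcript each probe is named for. After treatment in the control clones the brighter XRCC3 probe is higher (17.27 and 17.09) and the other lower (10.44 and 10.59), and the FANCA probes differ in direction likewise.

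Of the 14 genes with more than 1 tested probe, 9 had the same sign of response in all their probes in the knockdown clones and 11 in the control clones. The signs differed in the knockdown clones for ATM (-0.64 to 0.24), FANCA, FANCC (-0.59 to 0.09), FANCF (-0.09 to 0.40) and XRCC3, and in the control clones for ATM (-0.09 to 0.46), FANCA and XRCC3. All 6 probes of CHEK2 were lower in both kinds of clone, from -0.28 to -0.13 in the knockdown and from -1.53 to -0.47 in the control clones, where 4 of the 6 were called. All 3 probes of FANCD2 were lower in the knockdown clones (-1.02 to -0.69), and 2 of them were called in the control clones, although the brightest was not. All 6 probes of PMS2 were lower in the knockdown clones, from -0.41 to -0.14. PMS2 and CHEK2 have near-identical copies in the genome, so signal at their probes may be shared. The positions are those of the probes, and the files do not say whether they lie in coding or other exon sequence.

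Between untreated knockdown and control clones no repair gene was called. Over all genes 0.0102% were called lower and 0.0102% higher, so calls were few everywhere. Of the 38 genes 29 were higher in the knockdown clones, with a median of 0.20 against 0.01 over all genes, of which 51.6% were higher. Without untreated CONT1 this median was 0.13, and without untreated CONT2 it was 0.28. Genes of DNA replication and S phase had a median of 0.22, and the differences of these 20 genes ran from 0 to 0.52. In limma 1 of the 38 reached an unadjusted p below 0.05, as did 1619 of all 19688 genes tested. The 1 repair gene was PALB2, at 8.12 and 8.07 in the knockdown and 7.63 and 7.68 in the control clones (0.43 ± 0.18 SE, unadjusted p = 0.047, limma adjusted p = 0.60). All 9 homologous recombination genes had positive differences, from 0.10 (RAD54L) to 0.55 (BRCA2). In BRCA2 the difference came with a wide gap between the knockdown clones (7.01 and 6.01).

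Further genes of the same pathways were counted in the same way, from lists that were also chosen with earlier results of these data known. Of 81 further repair genes, all tested, 3 fell (3.70%, against 3.09% of all genes) and none rose in the knockdown clones, with a median of -0.24. In these 81 genes 24 fell in the control clones (29.6%, against 21.3% of all genes) and 7 rose (8.64%, against 20.5%), with a median of -0.29. The 22 further recombination and crosslink genes had a median of -0.40 in the knockdown clones with 1 call, RAD51D, a strand exchange factor (-0.87, limma adjusted p = 0.032). The 14 nucleotide excision genes had a median of -0.18 with 1 call, RAD23B, a partner of the damage sensor XPC (-0.94, limma adjusted p = 0.031). The 18 further base excision and direct reversal genes had a median of -0.26 with 1 call, the glycosylase NTHL1 (-0.88, limma adjusted p = 0.013). The 9 end joining genes (median -0.13) and the 18 signalling and lesion bypass genes (median -0.16) had no call in the knockdown clones.

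Genes of DNA replication and S phase were also lower after treatment. All 20 had negative differences in the knockdown clones, with a median of -0.64, and 7 were called lower (35%, against 3.09% of all genes). Among them the licensing factor CDT1 had -0.89 (limma adjusted p = 0.035), POLA1, the catalytic subunit of DNA polymerase alpha, had -0.82 (limma adjusted p = 0.028), and the transcription factor E2F1 had -0.79 (limma adjusted p = 0.020). In the control clones 8 of the 20 were called lower (40%, against 21.3% of all genes), with a median of -0.51. The 15 mitosis genes had a median of -0.26 in the knockdown clones with no call, and -0.02 in the control clones. There 2 were called lower (13.3%, against 21.3% of all genes) and 1 higher (6.67%, against 20.5%). An E2F-type word lay in a promoter window of 12 of the 17 replication genes with an entry (70.6%). The part of the replication genes in the shift of the repair genes was not tested.

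Markers of cell types other than epithelium were higher in the treated control clones, whose arrays form the second slide. Of 7 such markers 5 were tested, and all 5 were called higher in the control clones (median 1.56). There 20.5% of all genes were called higher. None of the 5 was called in the knockdown clones (median 1.23), against 9.45% of all genes called higher. DCN and PECAM1 passed the filter on dim signals only through treated arrays, so their rise is in part built in by the filter. The summed signal of the 7 markers was 721 to 783 on untreated and 1599 to 1987 on treated control arrays. In the knockdown clones it was 757 to 1240 against 1958 to 1965. Of the 7 epithelial markers 3 were called lower in the control clones (42.9%, against 21.3% of all genes). These were ELF3 (-2.41, limma adjusted p = 0.0025), EPCAM (-0.89, limma adjusted p = 0.042) and KRT8 (-0.75, limma adjusted p = 0.042). KRT18 was called higher there (0.61, limma adjusted p = 0.043), as were 20.5% of all genes. None of the 7 was called in the knockdown clones. Their summed signal was 332500 to 403100 on all 8 arrays. Among the 7 markers of other cell types, PTPRC and CD68 (blood) and COL1A1 (fibroblasts) were above background on all 8 arrays. DCN (fibroblasts) was above it on 4, PECAM1 (endothelium) on 3, CD3E (T cells) on 1 and COL3A1 (fibroblasts) on 0. The part of these markers in the responses of the repair genes was not tested.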

How the data were processed

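RNA of 4 HCT116 clones, each untreated and treated with 5-aza-dC, was hybridised to one-color arrays with probes of 60 bases annotated on hg19. The authors deposited spot intensities, as Feature Extraction 10.7.3.1 wrote them, with background already subtracted and poor spots flagged, and not normalized between arrays. The deposited flags for background and outliers were read beside them.

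Control spots were dropped, and the processed intensities of the other 58717 were put on a common 75th percentile (the geometric mean over arrays), with a floor of 1 before log2. Spots with a quality flag were not used, and spots of the same probe were averaged. The test took the 27287 of 50599 probes for which, in 1 condition or more, both arrays had at least 0.5 of the spots well above background. One model of 4 group means was fitted to the 8 arrays with limma 3.58.1 in R 4.3.3, with 4 residual degrees of freedom and Benjamini-Hochberg adjustment over all tested probes, at an adjusted p below 0.05. Genes were counted by their brightest tested probe (19688 genes). The clones are separate lines derived from HCT116. The p-values rest on the spread between the 2 clones of a condition, pooled over the 4 conditions, so the number of arrays limits the precision. Without the clone as a block this spread includes lasting differences between clones.

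The 38 members and all gene lists were chosen with earlier results of these data known. Per-array values were to be given for the called genes with the largest change in the knockdown clones, filled to 6 by p-value, for genes called between the responses, and for the dimmest and brightest gene, although signals of different probes are not comparable as levels. Values of other genes were added after they had been seen. Untreated and treated arrays with the same number are the same clone by the titles, so the numbers pair them. Deviations from the group means correlated within clones, with r = 0.20 in control and 0.48 in knockdown clones over 27287 probes. The clone as a block, other scalings, filters and tests, and leaving out each array were run as alternatives, and the functions were tested on simulated arrays. Promoter sequences and start sites were those of RefSeq (GRCh38.p14), and were not mixed with the hg19 probe positions.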

Additional observations from a re-analysis of the deposited data

Results flagged for a closer look

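The response of XRCC3 to 5-aza-dC at its brighter probe differed between the kinds of clone by a test of the difference itself. The response of the knockdown clones minus that of the control clones was -1.003 on the log2 scale (limma adjusted p = 0.0495, the other 37 repair genes were not called). Both control clones were higher after treatment, by 1.14 and 0.94, and the knockdown clones changed by -0.04 and 0.12. The call was kept in 6 of the 12 alternatives that keep all arrays. With quantile normalization the difference at the brighter probe was -0.57 (limma adjusted p = 0.20). With the GC trend removed it was -0.67 (limma adjusted p = 0.14). After interpolation on the spike-in signals it was -0.19 (limma adjusted p = 0.60), so its size depends on the scaling. The other XRCC3 probe gave a difference of 0.31 (limma adjusted p = 0.68) in the main setting. The treated control arrays form the second slide, so kind of clone and slide cannot be told apart in this value.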

How the results depend on the processing

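The 5 calls in the knockdown clones became 3 with quantile normalization, 9 with 50 added before log2, 1 with the 6 arrays of the first slide alone, and 0 with no filter on dim probes, with the 4 arrays compared alone, with the methods' t-test or with a 2-fold change required. They stayed between 4 and 7 in the other 8 alternatives, and ranged from 0 to 6 as each array was left out. The median of the 38 genes stayed between -0.49 and -0.33 over the 15 alternatives that keep all arrays of the knockdown clones. The 12 calls in the control clones became 20 with the replicate block, 22 with spike-in interpolation, 2 with the methods' t-test and 4 with a 2-fold change required, and ranged from 5 to 13 as each array was left out. The number of all genes called there moves with the setting too, such as from 8229 of 19688 to 7396 of 34395 with no filter. In the knockdown clones it went from 2469 of 19688 to 2379 of 19688 with quantile normalization and to 1725 of 34395 with no filter. The comparison of untreated clones gave 0 calls in all 15 alternatives and with each array left out (0 to 0). The 1 call in the difference of the responses became 0 with quantile normalization, no filter, the replicate block, the GC trend removed, spike-in interpolation or the mean of all probes, and was 0 to 0 as each array was left out.

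Some directions turned. In the control clones FANCE went to -0.066 with spike-in interpolation, and with the mean of all probes FANCA went to 0.026 and XRCC3 to -0.067. The median difference of the responses, -0.11, went to 0.23 with spike-in interpolation and ranged from -0.37 to 0.083 as each array was left out, with the highest value without treated TET1-KD2. The causes were not tested beyond what each alternative changes by construction. In the paired fit with the clone as a block, RAD54L was lost and FANCI gained in the knockdown clones, with 5 calls in all, and the untreated comparison, with the replicate number as a block, stayed at 0. With 2 clones per condition, leaving out an array leaves a lone sample that is assumed to vary like the other groups.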
